A study of Homo sapiens with 24 samples.

Results

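The 43 genes described here encode subunits of the proteasome and ubiquitin-conjugating enzymes that feed it. They were taken by gene symbol alone, as every listed gene named PSMA to PSMG followed by a number, or UBE2 followed by a letter and a number where there is one. In batch 1, 26 proteasome genes and 17 UBE2 genes met this rule among the 6603 genes present in every library, and the same 43 were present among the 7223 genes of batch 2. No gene with such a name was lost for being present in some libraries only, and all 43 passed the filter on low values. Genes listed in no library, PSMB4 and PSMC1 among them, could not be described, so counts by role do not cover whole rings. Proteasome subunits under other names enter only the counts of a pathway list.

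The proteasome is a barrel-shaped protease that degrades proteins carrying chains of ubiquitin. Its core particle stacks rings of alpha and beta subunits, and a regulatory particle at each end binds ubiquitin, unfolds the substrate with a ring of ATPases and removes the chain. Ubiquitin reaches a substrate by way of an activating enzyme (E1), a conjugating enzyme (E2, the UBE2 family) and a ligase (E3), and the E2 helps to set which kind of chain is built. The degron system used in this study works through the same machinery, since dTAG13 brings a tagged protein to a ubiquitin ligase.

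TT-seq, which labels, isolates and sequences the RNA made during a short pulse, was used to measure nascent RNA in DLD1, a colorectal adenocarcinoma cell line. The study asked how the endonuclease and the phosphatase of INTAC, the complex of Integrator and the phosphatase PP2A that acts on RNA polymerase II, differ in transcription. The INTS11 line (INTS11-dTAG) carried a dTAG tag knocked into INTS11, the endonuclease, and the INTS8 line (INTS8-dTAG) carried it in INTS8, a subunit that joins PP2A to the complex. The N211del line (INTS8-dTAG_INTS8-N211del) was the INTS8 line with INTS8-N211del, a variant of INTS8, expressed ectopically, so dTAG13 acted there on cells that also held the variant. In batch 1 each of the 3 lines was given the vehicle DMSO or dTAG13 for 3 h. In batch 2 the INTS11 and N211del lines were given dTAG13 for 0, 1 or 3 h, with no vehicle group. Each of the 12 groups had 2 libraries. No untagged line was given dTAG13, so an effect of the compound itself on ubiquitin genes cannot be told apart from the loss of the tagged protein, and that loss cannot be read from RNA. Each line is described without saying how many clones it holds, so differences between lines at rest cannot be told apart from differences between clones.

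Depth, taken as the sum of the whole-number units behind the values, ran from 5514811 to 8114955 for a library of batch 1 and from 8706126 to 11261859 for one of batch 2. The median member of the families had 685 to 902 units (batch 1) or 1116 to 1535 (batch 2), and the lowest member 20 to 72 or 27 to 90. Of 11 epithelial markers, 7 were listed in batch 1 and 9 in batch 2, with sums of 2063 to 2547 and 3153 to 3531. Of the 6 fibroblast markers only COL1A1 was listed, in batch 2, with a sum of 0 to 0.318, and none of 5 leukocyte or 3 endothelial markers was listed. In 6 of the 12 groups the replicates differed by no more than sampling noise, with a chi-square per gene of 0.88 to 1.02. The labels call them biological duplicates, so each was kept as 1 of 2 replicates, and the counts with such pairs averaged to 1 sample stand with the other alternatives. The p-values therefore speak only of the spread between libraries, which may be technical.

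Values are the deposited FPKM, which are corrected for gene length. In batch 1, value times length is a whole number with no factor per library, so these values may not be scaled for depth, whereas batch 2 values carry such a factor. A batch 1 change with the deposited values therefore includes any difference in depth between libraries, from which it cannot be told apart, and the values centred on each library's median are given beside the counts. A gene is called higher or lower when limma, fitted to log2(value + 0.1) over all tested genes of a batch, gives a Benjamini-Hochberg adjusted p under 0.05. Adjusted p-values below are from that fit and are two-sided. Calls by voom come from a fit that keeps the deposited scaling of each library, so they do not correct for depth. All fold changes are on the log2(value + 0.1) scale unless a fold is written out, and the number after ± is the standard error of the fitted change. Where a centred or loess count stands without a share of all genes, it shows how calls depend on scaling. Such a count does not show how the members differ from other genes.

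Promoters of 35 of the 43 members were found in RefSeq (GRCh38.p14), 22 of proteasome genes and 13 of UBE2 genes. Each window runs from 250 bases before to 50 bases after the start of the gene in that reference. Whether the deposited values count from the same starts was not checked, UBE2L3 included, whose reference gene overlaps RIMBP3C. The 4 shown belong to PSMC6, PSMD11 and UBE2L3, which fell after loss of INTS11, and to UBE2D1, which rose in every line. Capitals mark a GC box (GGGCGG, or CCGCCC on the other strand), the site of SP-family factors, and in PSMC6 also an ETS site (CCGGAAG). All 4 genes lie on the plus strand, at chr14:52706950-52707249 for PSMC6, chr17:32444260-32444559 for PSMD11, chr22:21549197-21549496 for UBE2L3 and chr10:58334756-58335055 for UBE2D1.

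PSMC6: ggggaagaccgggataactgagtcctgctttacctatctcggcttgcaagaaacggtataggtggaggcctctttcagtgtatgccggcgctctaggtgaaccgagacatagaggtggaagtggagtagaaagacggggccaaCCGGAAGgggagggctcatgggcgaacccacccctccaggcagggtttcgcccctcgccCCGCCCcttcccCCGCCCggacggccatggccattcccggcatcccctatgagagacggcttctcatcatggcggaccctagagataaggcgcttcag

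PSMD11: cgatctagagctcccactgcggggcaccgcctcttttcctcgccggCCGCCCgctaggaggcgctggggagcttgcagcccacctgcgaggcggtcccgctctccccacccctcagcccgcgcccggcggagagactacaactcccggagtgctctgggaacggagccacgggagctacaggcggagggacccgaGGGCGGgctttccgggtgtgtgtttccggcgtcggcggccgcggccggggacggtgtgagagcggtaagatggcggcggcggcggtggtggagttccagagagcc

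UBE2L3: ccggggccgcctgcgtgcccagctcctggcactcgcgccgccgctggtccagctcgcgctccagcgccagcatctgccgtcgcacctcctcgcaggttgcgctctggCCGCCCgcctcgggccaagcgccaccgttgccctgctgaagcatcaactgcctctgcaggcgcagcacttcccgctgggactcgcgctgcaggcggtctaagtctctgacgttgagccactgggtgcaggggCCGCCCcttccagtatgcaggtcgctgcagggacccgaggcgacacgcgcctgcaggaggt

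UBE2D1: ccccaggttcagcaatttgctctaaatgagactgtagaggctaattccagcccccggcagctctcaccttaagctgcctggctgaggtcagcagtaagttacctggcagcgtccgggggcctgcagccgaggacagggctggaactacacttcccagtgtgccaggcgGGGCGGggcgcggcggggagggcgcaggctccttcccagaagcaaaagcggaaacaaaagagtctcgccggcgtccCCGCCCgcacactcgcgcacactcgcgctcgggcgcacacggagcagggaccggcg

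The GC box was held by 15 of 22 proteasome promoters and 13 of 13 UBE2 promoters, against 71.2% of the 5623 promoters of tested genes. Both the genes that fell and the gene that rose hold it. The CCAAT box (CCAAT) was held by 11 of 22 proteasome promoters and 3 of 13 UBE2 promoters, against 36.5%. The core of the antioxidant response element (TGACNNNGC), to which NFE2L1, the factor known for driving proteasome genes when proteasome activity is low, binds with small MAF proteins, was held by 6 proteasome and 4 UBE2 promoters, against 15.2%. The proteasome promoters with it were those of PSMB3, PSMC4, PSMD1, PSMD12, PSMD3 and PSME4. The ETS site was held by 7 and 2 promoters, against 17.1%, and the NRF1 site by 3 and 5, against 11.1%. The E2F site (TTTCCCGC) was held by 2 and 0 promoters, against 2.69%, and the TATA box (TATAAA) by 1 and 0, against 5.57%. Each motif was searched on both strands, and a GC box can share bases with another GC-rich match.

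Both families were transcribed at high levels. The median proteasome gene lay 2.2 to 3.73 times above the median of all genes across the 24 libraries, and the median UBE2 gene 1.62 to 2.01 times above it. In batch 1, 25 of the 26 proteasome genes belonged to the highest of 4 equal bins of all genes by level, at or above 28.4. PSMD7, a subunit of the lid of the regulatory particle, was the highest proteasome gene, with group means of 68.4 to 87.3 in batch 1. PSMB10, the inducible subunit that replaces PSMB7 in the immunoproteasome, was the lowest, with 13.7 to 27.1. Among the E2 genes UBE2C, the enzyme of the anaphase-promoting complex, was highest with 73.1 to 103, and UBE2L6, the enzyme for the interferon-induced modifier ISG15, was lowest with 1.35 to 9.42.

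After 3 h without INTS11, transcription of many proteasome genes was lower than in vehicle. In batch 1, 15 of 26 proteasome genes were called lower, against 19.8% of all tested genes, and 0 were called higher, against 19.4%; limma without adjustment gave 16 lower and 0 higher at p under 0.05, and voom gave 15 and 0. The median change was -0.21, against -0.03 for all genes. In batch 2, 9 were called lower, against 19.3%, and 1 higher, against 36.0%, with a median of -0.12 against 0.08. The genes that fell in both batches numbered 7, and after correction of each library to its own median, or by cyclic loess, 10 of the 15 falls of batch 1 and the 9 of batch 2 held in all 3 scalings. The shares of all genes that fell in both batches, or held in all scalings, were not taken. In batch 1 the count was 9 without vehicle replicate 2 or without dTAG13 replicate 2, and in batch 2 it was 6 lower and 0 higher without replicate 2 of the 3 h group.

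**Figure D1:**
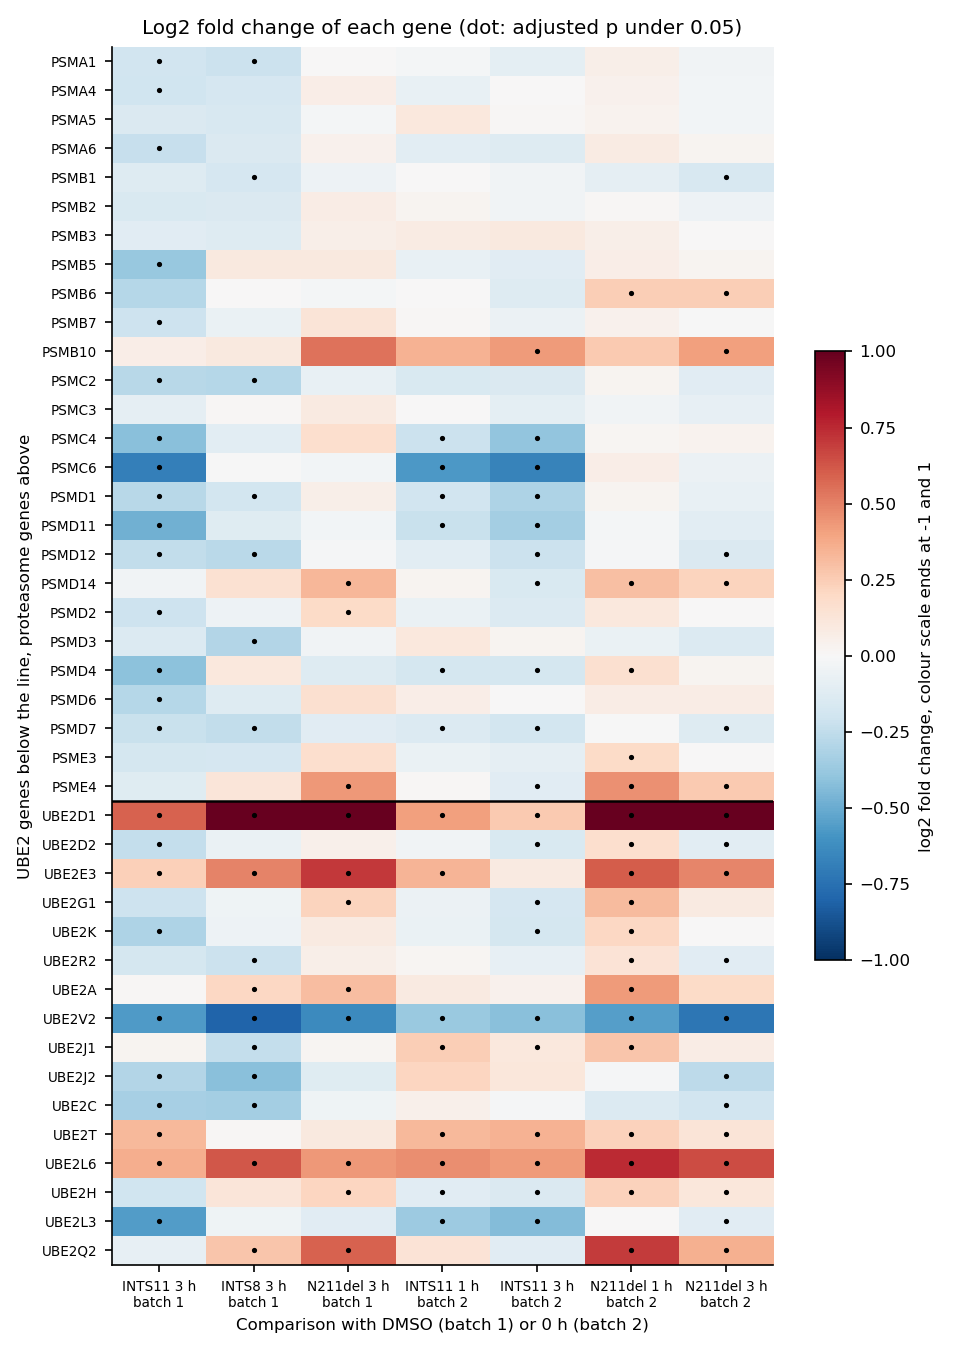
Log2 fold change of the 26 proteasome genes (rows above the line) and of the UBE2 genes (rows below it, 1 gene left out) in the 7 comparisons of dTAG13 with DMSO or 0 h (columns), with a dot where the limma adjusted p was under 0.05. Blue marks lower and red higher values, the colour scale ends at -1 and 1, and the blue runs through most proteasome genes of the INTS11 line in batch 1. In the 3 N211del columns the median of all genes lay at 0.18 to 0.31, and red cells of PSMD4, PSME3, UBE2D2, UBE2H, UBE2K and UBE2R2 at 1 h turn to lower calls when libraries are centred.

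The falls after INTS11 loss were largest in the regulatory particle. PSMC6, an ATPase of the unfolding ring, read 52.2 and 53.7 in vehicle and 32.8 and 32.9 after 3 h of dTAG13 in batch 1. Its libraries did not overlap, and the change was -0.69 ± 0.08 (adjusted p = 6.71e-07). In batch 2 PSMC6 read 45.3 and 45.4 at 0 h, 31.8 and 29.2 at 1 h, and 28.6 and 28.4 at 3 h. The fall was already -0.57 ± 0.05 (adjusted p = 2.09e-05) at 1 h and was -0.67 ± 0.05 (adjusted p = 1.08e-05) at 3 h, and all 4 treated libraries lay below both at 0 h.

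PSMD11, a lid subunit whose level is known to limit assembly of the complete proteasome, read 52.5 and 52.8 in vehicle and 38.6 and 36.8 after dTAG13, a change of -0.48 ± 0.08 (adjusted p = 4.8e-05). In batch 2 it read 40.7 and 37.5 at 0 h, 34.5 and 32.6 at 1 h, and 31.4 and 30.5 at 3 h, a 3 h change of -0.34 ± 0.05 (adjusted p = 0.000352). The treated libraries lay below the controls in both batches. PSMC4, another ATPase, read 32.6 and 36.9 in vehicle and 26.2 and 25.8 after dTAG13 (-0.41 ± 0.08, adjusted p = 0.000394). In batch 2 its values went from 36.1 and 33.4 at 0 h to 29.8 and 30.1 at 1 h and 26.3 and 26.6 at 3 h (-0.39 ± 0.04, adjusted p = 6.49e-05).

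The other genes that fell in both batches were PSMD4, the ubiquitin receptor (-0.41 and -0.18), PSMD1, the large scaffold of the base (-0.28 and -0.31), and the lid genes PSMD12 (-0.25 and -0.22) and PSMD7 (-0.23 and -0.18). By role, 3 of 4 listed ATPase genes and 7 of 9 other listed regulatory particle genes fell in batch 1, and 2 of 4 and 6 of 9 in batch 2. Of the 4 listed alpha ring genes, PSMA1, PSMA4 and PSMA6 fell in batch 1, by 0.19 to 0.23, and 0 of 4 in batch 2. Of the 6 listed genes of standard beta subunits, 0 fell in batch 2. In batch 1 PSMB5, which carries the chymotrypsin-like activity, and PSMB7, which carries the trypsin-like activity, fell (-0.38 and -0.21). For these core genes limma gave unadjusted p under 0.05 for 1 alpha gene and 0 beta genes in batch 2. Under cyclic loess the falls of PSMA1, PSMA4, PSMB7, PSMD2 and PSMD7 in batch 1 were not called. PSMD1 and PSMC2 overlap protein-coding neighbours in the reference (HTR2B for PSMD1, PMPCB and SLC26A5 for PSMC2), and reads of such genes may be shared.

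PSMD14, the metalloprotease that cuts ubiquitin chains from the substrate, did not follow in batch 1, with 48.3 and 47.3 in vehicle and 47.3 and 45.7 after dTAG13 (-0.04 ± 0.07, adjusted p = 0.685). In batch 2 it read 34.8 and 32.5 at 0 h and 30.3 and 30.1 at 3 h, and fell by 0.15 (adjusted p = 0.0238). PSMB10 was the exception in the other direction in batch 2, with 8.41 and 7.7 at 0 h and 9.4 and 12.5 at 3 h (0.43 ± 0.14, adjusted p = 0.0302). It held the fewest units of the proteasome genes, its change in batch 1 was 0.07 ± 0.21 (adjusted p = 0.833), and its batch 2 call was lost without either library at 0 h or without replicate 2 at 3 h (adjusted p up to 0.227) and with voom (adjusted p = 0.115).

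With the deposited values, fewer proteasome genes were called lower after loss of INTS8 than after loss of INTS11, and other genes led them. This order did not hold under the other scalings, given below. In the INTS8 line 7 of 26 were called lower (26.9%), a share near the 21.0% of all genes, and 0 higher, against 34.6%; without adjustment limma gave 8 lower and 1 higher, and voom 7 and 0. The median was -0.13 against 0.06 for all genes. PSMD3, a lid subunit, read 49.5 and 49.4 in vehicle and 41.3 and 39.2 after dTAG13 (-0.30 ± 0.08, adjusted p = 0.00194). PSMC2, an ATPase, read 38.3 and 38.7 in vehicle and 33.1 and 29.9 after dTAG13 (-0.29 ± 0.07, adjusted p = 0.00218). In both genes the treated libraries lay below the vehicle libraries. The others called were PSMD12 (-0.27), PSMD7 (-0.24), PSMA1 (-0.22), PSMD1 (-0.19) and PSMB1 (-0.17), a structural beta subunit, and all 7 held in the 3 scalings.

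PSMC6, the gene that fell most without INTS11, read 49.5 and 53 in vehicle and 54.4 and 47.9 without INTS8, so its groups overlapped (adjusted p = 0.965). Only 4 proteasome genes were called lower without vehicle replicate 1 and 2 without dTAG13 replicate 2. Centred on each library's median, 18 were called lower and 0 higher, and under cyclic loess 11 lower and 2 higher, where the INTS11 line of batch 1 had 17 and 10 lower. Shares of all genes under these scalings are not set beside the INTS8 counts, so the counts are not read as particular to proteasome genes.

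In the N211del line the deposited values showed few changes among proteasome genes, beside a higher median over all genes. Depth moved the same way in batch 1, with 5612470 and 5514811 units in vehicle and 6175772 and 7015653 after dTAG13, and the 2 cannot be told apart in the deposited values. In batch 1, 3 of 26 were called higher, against 48.5% of all genes, and 0 lower, against 7.1%; without adjustment limma gave 5 higher and 0 lower, and voom 4 and 0. The median proteasome gene changed by 0.06 where the median gene changed by 0.21. In batch 2, 5 were called higher at 1 h, against 66.0%, and 0 lower, against 4.92%, with 5 and 0 both without adjustment and by voom. At 3 h 4 were called higher, against 49.7%, and 3 lower, against 13.8%. The medians were 0.05 at 1 h and -0.02 at 3 h, against 0.31 and 0.18 for all genes.

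**Figure D2:**
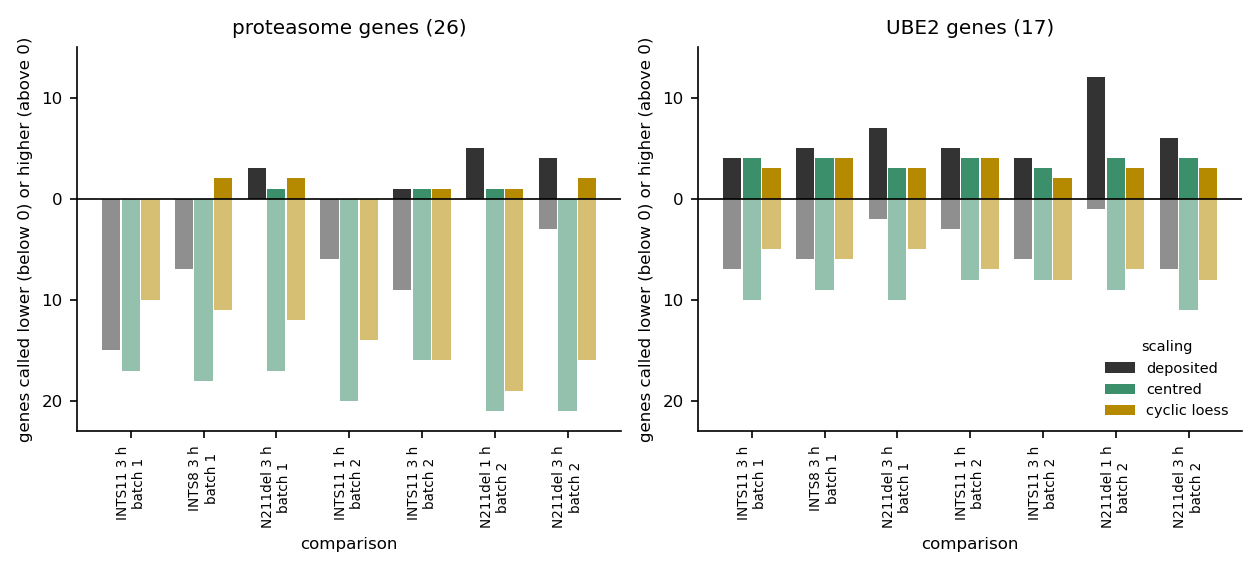
Number of proteasome genes (left, of 26) and UBE2 genes (right, of 17) called higher (dark bars above 0) or lower (pale bars below 0) in each of the 7 comparisons, with the deposited values, after centring on library medians, and after cyclic loess. For proteasome genes in the N211del line the deposited values give 0 to 3 lower, where centring gives 17 to 21 and cyclic loess 12 to 19. Most of these lower calls are of genes not called with the deposited values, and PSMD4 and PSME3 turn from higher to lower at 1 h with centring.

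Relative to the median gene, proteasome genes were mostly lower in this line, so the split of calls depends on the scaling. With each library centred, 1 proteasome gene was called higher and 17 lower in batch 1, 1 and 21 at 1 h, and 0 and 21 at 3 h in batch 2. For all genes under centring 35.2%, 36.1% and 35.1% were called lower. Cyclic loess gave 2 higher and 12 lower, 1 and 19, and 2 and 16. In batch 1 the deposited counts were 7 higher and 0 lower without dTAG13 replicate 1, and 3 and 2 without dTAG13 replicate 2. In batch 2 they were 3 and 0 at 1 h without replicate 1 of that group. At 3 h they were 3 and 1 without replicate 2 of 0 h, and 2 and 1 without either library at 3 h. In the INTS11 line the direction did not turn, with 0 higher and 17 lower (centred) or 0 and 10 (loess) in batch 1, 0 and 20 or 0 and 14 at 1 h, and 1 and 16 in both at 3 h in batch 2. Under centring, 24.5%, 30.3% and 28.9% of all genes were called lower in those 3 comparisons. In bulk values such as these, fewer cells making an RNA and less RNA per cell cannot be told apart.

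With the deposited values, an activator, PSME4, and the chain-cutting subunit, PSMD14, were called higher at 3 h in both batches of the N211del line. PSME4, a cap that opens the core particle without ubiquitin, read 24.4 and 24.3 in vehicle and 29.7 and 36.5 after dTAG13 in batch 1 (0.43 ± 0.08, adjusted p = 0.000135). In batch 2 it read 31.4 and 32.1 at 0 h, 43 and 44.5 at 1 h, and 38.1 and 38.3 at 3 h, with changes of 0.46 ± 0.04 (adjusted p = 2.9e-06) and 0.26 ± 0.04 (adjusted p = 0.000175). All 6 treated libraries lay above the controls of their batch. PSME4 was called higher in all 3 scalings in batch 1 and at 1 h, while at 3 h in batch 2 centring gave 0.07 (adjusted p = 0.0584).

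PSMD14 read 27.8 and 27.3 in vehicle and 33 and 36.5 after dTAG13 in the N211del line (0.33 ± 0.07, adjusted p = 0.000337), and 40 and 42.2 at 0 h, 50.5 and 50.6 at 1 h and 48.6 and 47.2 at 3 h in batch 2 (0.22 ± 0.05 at 3 h, adjusted p = 0.00315). Treated libraries lay above controls throughout, and with centring the call was lost in each comparison, at 0.07 in batch 1 (adjusted p = 0.0915), -0.05 at 1 h (adjusted p = 0.149) and 0.02 at 3 h (adjusted p = 0.472). Cyclic loess kept the batch 1 and 3 h calls (0.18 and 0.10) and lost the 1 h call (adjusted p = 0.0714). PSMB10 read 17.7 and 22.9 at 0 h and 27.2 and 26.6 at 3 h (0.41 ± 0.14, adjusted p = 0.0307), was not called in batch 1 (0.54 ± 0.21, adjusted p = 0.0673), and lost its call without replicate 1 of 0 h or either library at 3 h (adjusted p up to 0.225), with centring (adjusted p = 0.2) and with loess (adjusted p = 0.181). PSMB6, which carries the caspase-like activity, also rose in batch 2 at 1 h and 3 h (0.25 and 0.24), and PSMD2, a scaffold of the base, rose in batch 1 (0.19, adjusted p = 0.0463); neither call held under centring or loess.

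Falls in the N211del line at 3 h in batch 2 were called for 3 genes. PSMB1 read 68.7 and 66.3 at 0 h and 59.4 and 61.1 at 3 h (-0.16 ± 0.04, adjusted p = 0.00752). PSMD12 read 47.8 and 50.4 at 0 h and 44.4 and 44.4 at 3 h (-0.14 ± 0.04, adjusted p = 0.0189), and PSMD7 fell by 0.13 (adjusted p = 0.0226). The PSMB1 and PSMD12 libraries did not overlap. PSMB1 lost its call without replicate 1 of 0 h or replicate 1 of 3 h (adjusted p up to 0.0524), and PSMD12 without replicate 2 of 0 h or either library at 3 h (adjusted p up to 0.12).

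The UBE2 genes moved in both directions in every line, as did all genes, whose shares stand in parentheses throughout this paragraph. Several of the UBE2 counts lie near those shares, and the counts are not read as particular to the family. In batch 1 after INTS11 loss 4 of 17 were called higher (19.4% of all genes) and 7 lower (19.8%), with a median of -0.20. After INTS8 loss 5 were higher (34.6%) and 6 lower (21.0%), with a median of -0.05. The N211del line had 7 higher (48.5%) and 2 lower (7.1%), with a median of 0.09. In batch 2 the INTS11 line had 5 higher (46.0%) and 3 lower (9.86%) at 1 h, and 4 (36.0%) and 6 (19.3%) at 3 h. The N211del line had 12 higher (66.0%) and 1 lower (4.92%) at 1 h, and 6 (49.7%) and 7 (13.8%) at 3 h. For the proteasome genes at 1 h in the INTS11 line the count was 6 lower (9.86%) and 0 higher (46.0%), with 7 and 1 by limma without adjustment and 9 and 1 by voom.

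Scaling moved the split of the UBE2 genes. Centring gave 4 higher and 9 lower in the INTS8 line, 3 and 10 in the N211del line of batch 1, 4 and 8 in the INTS11 line at 1 h and 3 and 8 at 3 h, and 4 and 9 at 1 h and 4 and 11 at 3 h in the N211del line of batch 2. Cyclic loess gave 4 and 6, 3 and 5, 4 and 7, 2 and 8, 3 and 7, and 3 and 8 in the same order. Leaving out INTS11 vehicle replicate 2 or dTAG13 replicate 2 in batch 1 left 7 or 6 calls. Leaving out N211del vehicle replicate 2 left 4. Leaving out replicate 2 of the INTS11 3 h group in batch 2 left 6, and in the N211del line at 3 h leaving out replicate 2 of 0 h left 5, replicate 1 of 3 h left 7 and replicate 2 of 3 h left 5.

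A set of 3 UBE2 genes was called in the same direction in all 5 comparisons at 3 h, with no share of all genes taken beside this count. UBE2D1, a broadly acting E2 that serves many ligases, was higher in each. It read 27.8 and 26.9 in vehicle and 40.7 and 41.9 after INTS11 loss (0.59 ± 0.07, adjusted p = 7.4e-07). Without INTS8 it went from 26.3 and 27.3 to 79.5 and 78.3, a rise of 2.94-fold (adjusted p = 1.4e-14), and in the N211del line from 19.5 and 19.1 to 50.8 and 55 (1.45 ± 0.07, adjusted p = 7.81e-14). In each line both treated libraries lay above both controls, and those of the INTS8 line lay highest.

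In batch 2 UBE2D1 read 25.7 and 25 at 0 h, 34.5 and 32.9 at 1 h, and 30.1 and 30.6 at 3 h in the INTS11 line (0.41 ± 0.04, adjusted p = 2.49e-05, and 0.26 ± 0.04, adjusted p = 0.000437). In the N211del line it read 22.3 and 23.6 at 0 h, 68.2 and 67.7 at 1 h, and 68.8 and 68.8 at 3 h (1.56 ± 0.04, adjusted p = 3.44e-09, and 1.58 ± 0.04, adjusted p = 2.25e-09). The rise of 2.99-fold at 3 h in the N211del line was thus nearly complete at 1 h. UBE2D1 was called higher in all 3 scalings and by voom in every one of these comparisons.

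**Figure D3:**
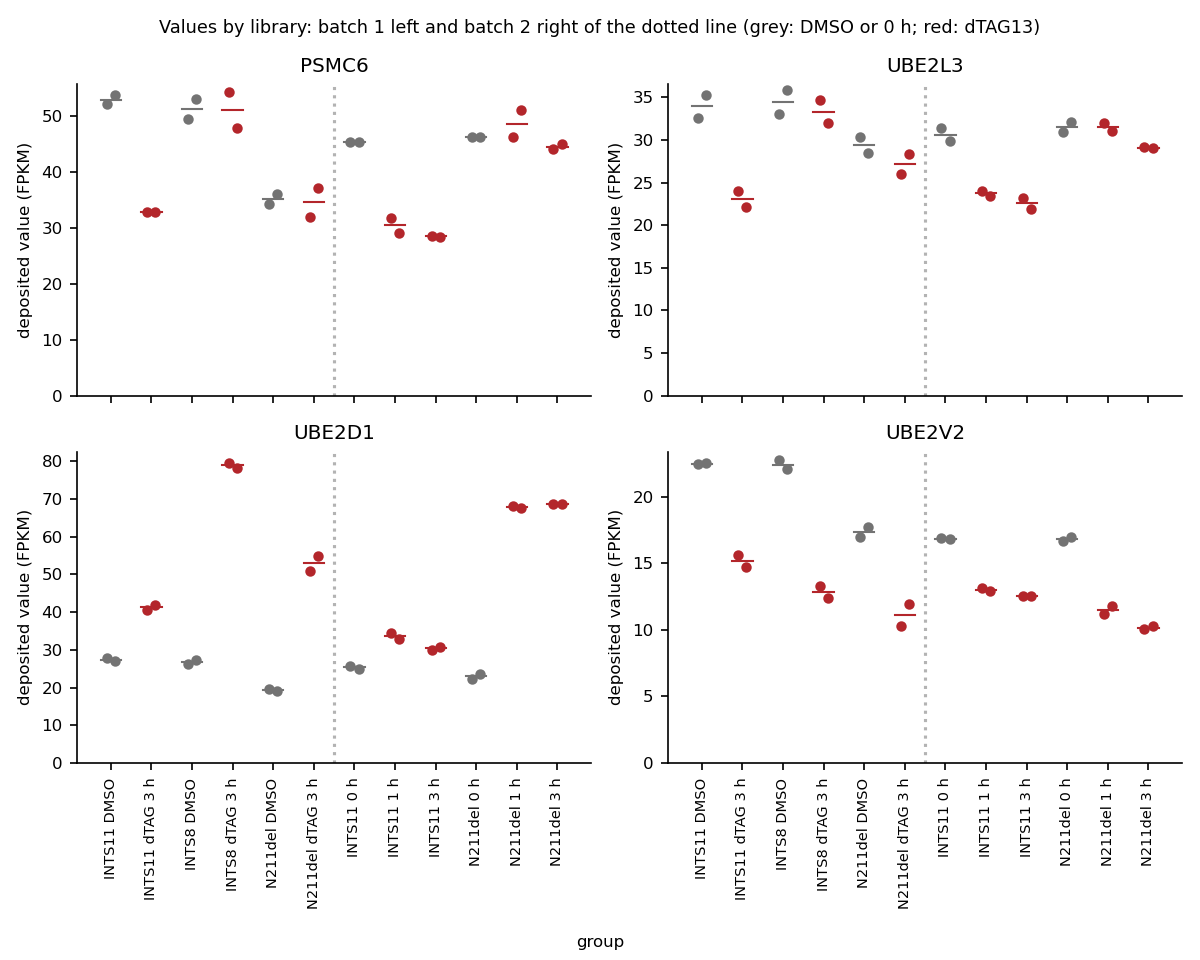
Deposited value of PSMC6, UBE2L3, UBE2D1 and UBE2V2 in each of the 24 libraries (points) by group, with the mean of the 2 replicates as a bar, controls in grey and dTAG13 in red; batch 1 is left and batch 2 right of the dotted line, and every axis starts at 0. PSMC6 and UBE2L3 drop in the INTS11 line (PSMC6 from 52.2 and 53.7 to 32.8 and 32.9 in batch 1), UBE2D1 climbs most in the INTS8 and N211del lines, and UBE2V2 is lower after dTAG13 in each line.

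UBE2V2, an E2-like protein without a catalytic cysteine that pairs with UBE2N to build chains used in DNA damage tolerance, was lower in each comparison. It read 22.5 and 22.5 in vehicle and 15.6 and 14.7 after INTS11 loss (-0.56 ± 0.08, adjusted p = 1.83e-05), 22.8 and 22.1 against 13.3 and 12.4 after INTS8 loss (-0.80 ± 0.08, adjusted p = 3.88e-08), and 17 and 17.7 against 10.3 and 12 in the N211del line (-0.64 ± 0.08, adjusted p = 1.09e-06). No treated library overlapped a control. In batch 2 it went from 16.9 and 16.8 to 13.1 and 12.9 at 1 h and 12.6 and 12.6 at 3 h in the INTS11 line (-0.42 ± 0.04 at 3 h, adjusted p = 2.17e-05), while it fell from 16.7 and 17 to 11.2 and 11.8 and then 10 and 10.3 in the N211del line (-0.72 ± 0.04, adjusted p = 1.88e-07). All of these calls held in the 3 scalings and by voom. UBE2V2-AS1 overlaps the gene in the reference, and since the sources used here do not say whether reads were counted by strand, its reads may be included. UBE2A, the RAD6 enzyme that acts in the same repair pathway, was called higher after INTS8 loss (0.21) and in the N211del line in batch 1 (0.31) and at 1 h in batch 2 (0.42), but with centring none of these 3 was called.

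UBE2L6 was the third, at low levels. It read 1.5 and 1.2 in vehicle and 1.56 and 1.98 after INTS11 loss (0.37 ± 0.14, adjusted p = 0.0434), 4.98 and 4.8 against 8.04 and 7.14 after INTS8 loss (0.62 ± 0.14, adjusted p = 0.000806), and 7.14 and 6.66 against 8.22 and 10.6 in the N211del line (0.43 ± 0.14, adjusted p = 0.0124). In batch 2 it read 3.15 and 3.17 at 0 h and 4 and 4.57 at 3 h in the INTS11 line (0.42 ± 0.10, adjusted p = 0.00636), and 3.72 and 3.62 against 5.99 and 5.7 in the N211del line (0.66 ± 0.10, adjusted p = 0.000355). Treated libraries lay above controls each time. In batch 1 the INTS11 call was lost without vehicle replicate 2 or dTAG13 replicate 2 (adjusted p up to 0.359), with a pseudocount of 1 (0.0929), with loess (0.318) and with voom (0.242). The N211del call of batch 1 was lost without vehicle replicate 2 or dTAG13 replicate 2 (up to 0.225), with centring (0.308) and with loess (0.893), the INTS8 call with loess (0.0502), and the INTS11 call of batch 2 without replicate 2 of 3 h (0.0544) and with loess (0.157).

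UBE2L3, an E2 that works with ligases of the HECT and RBR types such as parkin, fell in the INTS11 line in both batches. It read 32.6 and 35.2 in vehicle and 24 and 22.1 after dTAG13 (-0.56 ± 0.08, adjusted p = 9.83e-06), and in batch 2 31.4 and 29.9 at 0 h, 24 and 23.5 at 1 h, and 23.2 and 22 at 3 h (-0.44 ± 0.04, adjusted p = 3.18e-05). The treated libraries lay below the controls in both batches. In the INTS8 line it read 33 and 35.8 against 34.6 and 32 (-0.05 ± 0.08, adjusted p = 0.638), with overlapping groups, and in the N211del line the changes were -0.11 (adjusted p = 0.229) and -0.11 (adjusted p = 0.0355). RIMBP3C overlaps UBE2L3 in the reference.

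UBE2T, the E2 of the Fanconi anemia pathway, rose in the INTS11 line, from 47.7 and 52.4 to 61.8 and 63.5 in batch 1 (0.32 ± 0.07, adjusted p = 0.000784) and from 47.5 and 49.5 to 60.3 and 63.2 at 3 h in batch 2 (0.35 ± 0.04, adjusted p = 7.97e-05). Its libraries did not overlap, and the INTS11 calls held in the 3 scalings. In the INTS8 line its difference was 0.01 ± 0.07 (adjusted p = 0.914). In the N211del line of batch 2 it was called higher with the deposited values (0.23, adjusted p = 0.000491, at 1 h and 0.13, adjusted p = 0.0163, at 3 h), but neither call held with centring or loess, and in batch 1 centring gave a lower call (-0.16, adjusted p = 0.0256). UBE2C, its neighbour in the list of cell cycle enzymes, fell after INTS11 loss (-0.33) and INTS8 loss (-0.34) in batch 1, and in batch 2 was at -0.01 (adjusted p = 0.864) in the INTS11 line and fell by 0.19 in the N211del line.

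UBE2E3, a close relative of the UBE2D enzymes, rose by 0.24 after INTS11 loss, 0.50 after INTS8 loss and 0.70 ± 0.08 (adjusted p = 5.8e-08) in the N211del line of batch 1, where it read 13.8 and 13.8 in vehicle and 21.5 and 23.6 after dTAG13. In batch 2 it rose in the INTS11 line at 1 h (0.34) and was not called at 3 h (0.09, adjusted p = 0.145), whereas the N211del line showed a rise at both times (0.60 and 0.49). UBE2Q2, a less studied E2, read 6.83 and 7.18 in vehicle and 9.94 and 11.3 after dTAG13 in the N211del line (0.59 ± 0.09, adjusted p = 6.19e-06), with no overlap, and rose by 0.28 in the INTS8 line. In the INTS11 line its changes were -0.08 (adjusted p = 0.468) and -0.12 (adjusted p = 0.166). In batch 2 UBE2Q2 rose by 0.70 at 1 h and 0.36 at 3 h in the N211del line, the latter not called under loess.

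The E2s of the membrane of the endoplasmic reticulum, which mark misfolded proteins for degradation, both fell after INTS8 loss (UBE2J2 -0.41, UBE2J1 -0.24). In batch 2 UBE2J1 was called higher in the INTS11 line (0.24 at 1 h and 0.10 at 3 h) and at 1 h in the N211del line (0.28), and none of these calls held with centring. UBE2J2 read 29.1 and 29.6 at 0 h and 24.8 and 24.2 at 3 h in the N211del line (-0.26 ± 0.09, adjusted p = 0.0251), and this call was lost when any of the 4 libraries was left out (adjusted p up to 0.0956).

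Of the E2s that build degradative chains with cullin ligases and others, UBE2K fell after INTS11 loss in both batches (-0.31 and -0.18), UBE2G1 fell in batch 2 at 3 h (-0.17), and UBE2R2 fell after INTS8 loss (-0.21). UBE2D2, the sister of UBE2D1, fell after INTS11 loss (-0.24 and -0.15) where UBE2D1 rose. In the N211del line at 1 h UBE2D2, UBE2K and UBE2R2 were called higher (0.17, 0.21 and 0.14) with the deposited values but lower with each library centred, so no direction is given for them there. UBE2G1 was called higher in the N211del line in batch 1 (0.22, adjusted p = 0.0308) and at 1 h in batch 2 (0.31), and lost both calls with centring and loess. UBE2H, the E2 of the CTLH ligase, was called lower in the INTS11 line of batch 2 (-0.11 at 1 h and -0.14 at 3 h), and in the N211del line its small rises turned to lower calls under centring in batch 2.

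**Figure D4:**
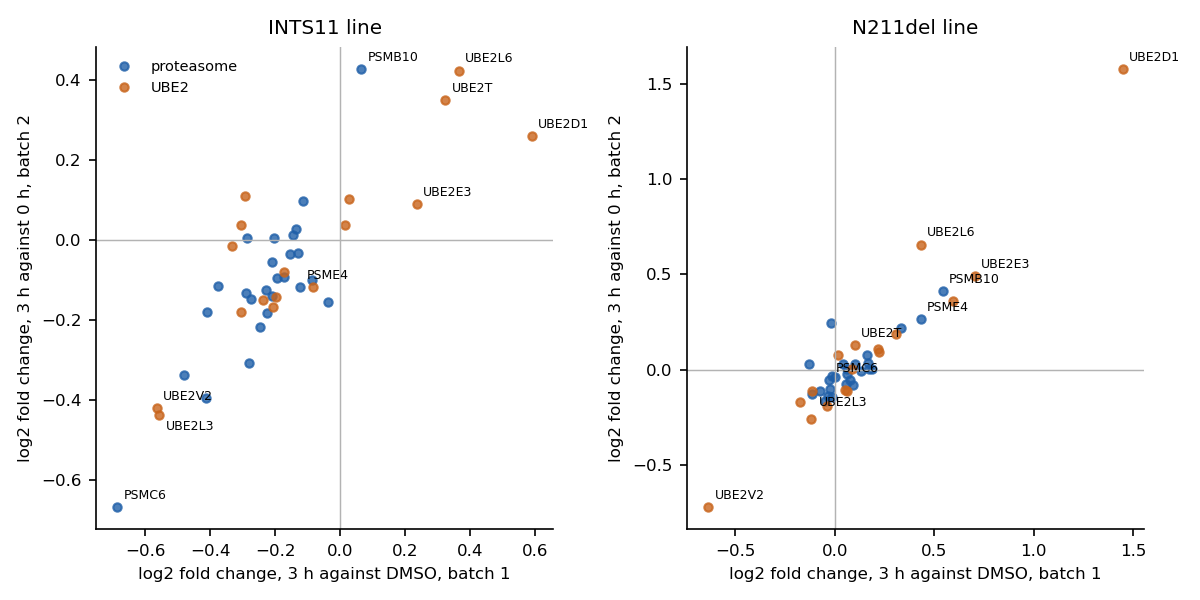
Log2 fold change at 3 h in batch 2 (against 0 h) by that in batch 1 (against DMSO) for the 26 proteasome genes (blue) and 17 UBE2 genes (orange) in the INTS11 line (left) and the N211del line (right). PSMC6, UBE2L3 and UBE2V2 lie at the lower left for INTS11 and UBE2D1 at the upper right for both lines, at 0.59 and 0.26 for INTS11 and 1.45 and 1.58 for N211del.

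The 2 batches share no libraries and used different controls. Across the 26 proteasome genes the 3 h changes of the batches correlated at r = 0.828 (INTS11) and 0.788 (N211del), and across the 17 UBE2 genes at 0.852 and 0.968, against 0.828 and 0.908 over 6569 genes. Between the INTS11 and INTS8 lines of batch 1 the correlation was 0.018 for proteasome genes and 0.815 for UBE2 genes, against 0.723 over 6579 genes. Between INTS8 and N211del it was 0.567 and 0.964, against 0.903. These are descriptions across genes, which are not independent replicates. Of the 26 proteasome genes 5 were called in none of the 5 comparisons at 3 h, and of the 17 UBE2 genes 0 were, by limma. No share of all genes was taken for this joint count, so it is not read as particular to either family.

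The difference between the responses to loss of INTS8 and INTS11 was tested within batch 1. Of the 43 genes 7 were called higher in the INTS8 response, against 19.4% of all genes, and 1 lower, against 6.0%. UBE2D1 led with 0.96 ± 0.10 (adjusted p = 1.3e-07), and PSMC6 followed with 0.68 ± 0.11 (adjusted p = 7.47e-05). The others were PSMD4 (0.52), UBE2L3 (0.51), PSMB5 (0.47), PSMD11 (0.36) and UBE2Q2 (0.36), and UBE2T was the gene with the lower response (-0.31). All held in the 3 scalings except UBE2Q2, while the whole split became 6 higher and 8 lower with centring and 8 and 5 with loess.

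The N211del response was set against the INTS11 response in each batch. In batch 1, 22 of 43 were called higher (51.2%), a share near the 43.7% of all genes, and 0 lower, against 4.8%, with 25 and 1 by limma without adjustment and 23 and 0 by voom. At 1 h in batch 2, 17 were called higher, against 39.3% of all genes, and 1 lower, against 9.24%. At 3 h 15 were called higher, against 35.8%, and 3 lower, against 15.2%. The shares of higher calls in batch 2 were near those of all genes. Centring gave 6 higher and 4 lower, 7 and 14, and 9 and 14, and loess 8 and 4, 10 and 10, and 12 and 10. The median gene differed by 0.26, 0.16 and 0.11. UBE2D1 was the largest each time, at 0.86 ± 0.10 (adjusted p = 8.7e-07), 1.15 ± 0.05 (adjusted p = 1.46e-06) and 1.32 ± 0.05 (adjusted p = 6.07e-07). PSMC6 differed by 0.66 ± 0.11 (adjusted p = 0.000101), 0.64 ± 0.07 (adjusted p = 0.000121) and 0.61 ± 0.07 (adjusted p = 0.000144), and UBE2Q2 by 0.68 ± 0.12 (adjusted p = 0.000237) in batch 1. PSMC6, PSME4, UBE2D1 and UBE2Q2 held in all 3 scalings in each of the 3 comparisons. UBE2V2 had the more negative response in the N211del line in batch 2, by -0.18 at 1 h (adjusted p = 0.0184) and -0.30 ± 0.05 at 3 h (adjusted p = 0.00115).

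PSMC6 itself did not pass the test in the N211del line with the deposited values. It read 34.3 and 36.1 in vehicle and 32 and 37.1 after dTAG13 (-0.03, adjusted p = 0.779), and in batch 2 46.3 and 46.2 at 0 h, 46.2 and 51 at 1 h and 44 and 45 at 3 h (0.07, adjusted p = 0.256, and -0.06, adjusted p = 0.368). The groups overlapped in batch 1 and at 1 h. Relative to the median gene PSMC6 was lower by 0.24 at both times of batch 2. With each library centred, all 4 listed ATPase genes, PSMC6 among them, were called lower at 1 h and at 3 h. Whether PSMC6 is called in this line thus depends on the scaling.

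Between the N211del and INTS8 responses limma called 0 of 43 genes in either direction, against 9.04% higher and 2.01% lower over all genes. Without adjustment 17 were higher and 0 lower, and voom called 5 higher. This count rested on single libraries: it was 27 higher without N211del dTAG13 replicate 1, 1 lower without N211del dTAG13 replicate 2, and 2 higher without INTS8 dTAG13 replicate 1. With centring or loess 2 were lower. UBE2D1 differed by -0.11 ± 0.10 (adjusted p = 0.447).

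From 1 h to 3 h the values mostly drifted down with all genes. In the INTS11 line 6 of 43 were called lower, against 15.1%, and 0 higher, against 0.475%; limma without adjustment gave 14 and 0, and voom 14 and 0. They were PSMC4 (-0.18, adjusted p = 0.0272), PSMD14 (-0.18), UBE2Q2 (-0.26), UBE2E3 (-0.25), UBE2D1 (-0.15, adjusted p = 0.0345) and UBE2J1 (-0.14). With centring 0 were called, with loess 1, and 0 without replicate 1 of 1 h or without either library at 3 h. Between the times 13 were called lower in the N211del line, against 35.0%, and 0 higher, against 2.2%, with 20 and 0 without adjustment and by voom. These were 4 proteasome genes (PSMD7, PSMD12, PSME3 and PSME4) and 9 UBE2 genes, led by UBE2Q2 (-0.34) and UBE2D2 (-0.28). The count was 8 without replicate 2 of 1 h or replicate 2 of 3 h, and centring gave 6 higher and 2 lower. UBE2D1 in this line was at 0.02 (adjusted p = 0.755) between the times.

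The lines also differed before dTAG13. In batch 1, 32 of 43 genes were called lower in the N211del line than in the INTS8 line under vehicle, against 58.7% of all genes, and 1 higher, against 5.03%, where the median gene was lower by 0.30. The gene that was higher was UBE2L6. Centring gave 8 higher and 18 lower and loess 7 and 18, and calls for PSMD14 (-0.71), PSME4 (-0.71) and PSMC6 (-0.54) were among the deposited ones. In batch 2, 26 were called higher in the N211del line than in the INTS11 line at 0 h, against 38.4%, and 5 lower, against 31.6%, the same split as with centring and loess. These held 20 proteasome genes, among them PSMB10 (1.31 ± 0.14, adjusted p = 3.06e-05), PSME3 (0.73) and PSMD2 (0.64), and PSMD7 was the single proteasome gene that was lower (-0.35). The batch 1 vehicle groups of these lines lay the other way, and that pair was not tested. Proteasome values there summed to a mean of 1035 (N211del) and 1254 (INTS11), against 1308 and 1103 at 0 h in batch 2. As multiples of the all-gene median, the proteasome medians were 2.65 and 2.67 against 2.86 and 2.94 in batch 1 vehicle. At 0 h in batch 2 they were 3.73 and 3.68 against 3.05 and 3.07. In the INTS8 line under vehicle 5 genes were higher than in the INTS11 line, against 26.8%, and 0 lower, against 3.91%, with 9 and 1 by limma without adjustment and 5 and 0 by voom. UBE2L6 was the largest, at 1.79 ± 0.14 (adjusted p = 4.21e-09). That last count was 3 without INTS11 vehicle replicate 1, and 2 or 1 without INTS8 vehicle replicate 1 or 2, and centring gave 2 higher and 10 lower and loess 4 and 5.

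Other genes of the pathway, from lists chosen by function, were counted with the deposited values. The shares of all genes called higher and lower at 3 h were 19.4% and 19.8% (INTS11), 34.6% and 21.0% (INTS8) and 48.5% and 7.1% (N211del) in batch 1, and 36.0% and 19.3% (INTS11) and 49.7% and 13.8% (N211del) in batch 2. Centred counts are given below for each list as higher and lower, in that order of the 5 comparisons. Of 5 tested E1 genes 4 fell after INTS11 loss in each batch. UBA3, the E1 subunit for NEDD8, which switches on cullin ligases, fell most (-0.66, adjusted p = 2.53e-06, and -0.67, adjusted p = 3.09e-05). In the INTS8 line 2 fell, and in the N211del line 1 in batch 1 and 3 in batch 2, with 1 higher. Of 6 shuttle factors and VCP partners, 2 fell after INTS11 loss in batch 1 and 3 in batch 2, led by FAF2 (-0.91 and -0.91), a cofactor of VCP at the endoplasmic reticulum, and RAD23B (-0.35 and -0.44), which carries ubiquitylated proteins to the proteasome. Centring gave 0 and 4, 0 and 4, 0 and 5, 0 and 4, and 0 and 4 for the E1 genes, and 0 and 3, 0 and 5, 0 and 4, 0 and 4, and 0 and 4 for the shuttle factors, so the N211del counts move with the scaling.

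NFE2L1, the transcription factor known for raising proteasome genes, rose after INTS8 loss (0.57, adjusted p = 2.67e-06) and in the N211del line (0.43 and 0.37), and in the INTS11 line of batch 2 (0.31). NGLY1, the glycanase that helps to activate NFE2L1, fell in the INTS11 line (-0.27 and -0.29) and rose in the N211del line (0.47 and 0.44), and was at 0.30 in the INTS8 line. Of the 7 further proteasome subunits, assembly factors and regulators in that list, 0 rose and 2 fell in the INTS11 line of batch 1, 2 rose and 2 fell in the INTS8 line, and 4 rose and 0 fell in the N211del line of batch 1. In batch 2 the counts at 3 h were 1 higher and 2 lower (INTS11) and 4 and 2 (N211del). With centring they were 0 and 2, 2 and 2, 1 and 3, 1 and 4, and 2 and 3.

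Deubiquitinase genes, 17 tested, gave 0 higher and 6 lower in the INTS11 line in both batches, 1 and 3 in the INTS8 line, and 7 and 0 and then 7 and 3 in the N211del line. Cullin ligase genes, 20 tested, gave 3 and 8 and then 5 and 7 (INTS11), 5 and 2 (INTS8), and 7 and 0 and then 8 and 2 (N211del). Genes of the anaphase-promoting complex and its partners, 12 tested, gave 1 and 5 and then 3 and 3 (INTS11), 2 and 4 (INTS8), and 4 and 1 and then 4 and 4 (N211del). For the ubiquitin and ubiquitin-like precursors, 7 tested, the counts were 0 and 3 and then 1 and 2 (INTS11), 0 and 2 (INTS8), and 1 and 0 and then 2 and 1 (N211del), the last including ISG15 (0.50) and UBB (0.24). With centring, deubiquitinase genes gave 0 and 9, 1 and 9, 1 and 8, 0 and 10, and 1 and 7. Cullin ligase genes then gave 4 and 10, 2 and 10, 3 and 9, 5 and 14, and 2 and 12, and genes of the anaphase-promoting complex 2 and 6, 2 and 6, 1 and 7, 3 and 5, and 2 and 6. The precursors gave 1 and 3, 0 and 5, 0 and 2, 1 and 3, and 1 and 5. In the N211del line these lists held mostly higher calls or equal numbers with the deposited values and mostly lower calls with centring, as did the cullin ligase genes in the INTS8 line, so no direction is given for them there.

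Interferon-stimulated genes were counted beside UBE2L6, the ISG15 enzyme. Of 11 tested in batch 1, 4 (INTS11), 6 (INTS8) and 7 (N211del) rose and 0 fell, and of 13 in batch 2, 6 higher and 1 lower (INTS11) and 9 and 0 (N211del) at 3 h. With centring the counts were 5 and 0, 6 and 1, 5 and 1, 6 and 1, and 8 and 1. Their part in the UBE2L6 values was not tested. Genes of proteotoxic stress, 9 tested in batch 1 and 10 in batch 2, gave 0 higher and 3 lower and then 2 and 3 in the INTS11 line, 1 and 2 in the INTS8 line, and 3 and 1 and then 6 and 2 in the N211del line. With centring they gave 0 and 3, 0 and 5, 0 and 4, 2 and 3, and 4 and 3. HMOX1, a heme oxygenase induced by oxidative stress, rose by 0.58 at 3 h in the N211del line of batch 2.

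Level and length moved with the response to INTS11 loss in all genes. In batch 1 the median change went from 0.24 in the lowest of the 4 level bins to -0.12 in the highest, where 34.0% were called lower, and 25 of the 26 proteasome genes belong to the highest, with a median of -0.21. By length, the median change in the shortest and longest of 4 bins was 0.02 and -0.04 in batch 1. At 3 h in batch 2 it was 0.20 and -0.03. Proteasome genes are short, with a median length of 16308 bp against 34300 bp for all genes, and UBE2 genes long, with 56278 bp. Within the proteasome family the rank correlation of the INTS11 change in batch 1 with length was 0.0065 and with level -0.0462 (26 genes, a description). With length in batch 2 it was -0.0598 at 1 h and -0.199 at 3 h. Across the 17 UBE2 genes the correlation with length was -0.0956 in batch 1, and -0.48 at 1 h and -0.569 at 3 h in batch 2. The part of level and length in the counts of the 2 families was not tested.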

How the data were processed

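Nascent RNA of 24 TT-seq libraries was analysed, 12 in each of 2 batches, in 12 groups of 2. The deposited values are FPKM per gene, per the file headers. Per the submitters' processing notes, which give no role or order, the tools were DESeq2 1.26.0, STAR 2.7.5c, Trim Galore 0.6.6, Picard 2.23.3 and SAMtools 1.9, and the builds hg19 and mm10. The sources used here do not say how reads were counted, nor whether by strand. Multiplied by gene length, the values were whole numbers within 0.02 units, in batch 1 with no further factor per library and in batch 2 with one, so these units were taken as depth.

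Each batch was fitted apart with limma 3.58.1 in R 4.3.3 on log2(FPKM + 0.1), with trend and robust variance, over all genes with a batch mean of at least 0.1 (6579 and 6950 genes). Benjamini-Hochberg adjustment ran over all genes of a comparison, with a threshold of 0.05. The differences between responses are interaction terms of the same fit. Tables and figures were made with Python 3.11.15, pandas 2.3.3 and matplotlib 3.10.9, and the fit was tested on simulated data. Alternatives were pseudocounts of 0.01 and 1, a minimum mean of 1, libraries centred on their median, cyclic loess, the replicate number as a block, a fit on the libraries named alone, and each library left out in turn. A voom fit to the units, and a fit with replicate pairs averaged where they differed by no more than sampling noise, were chosen after seeing the data. The voom fit used library sizes that keep the scaling of the deposited values.

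The members and lists were chosen with earlier results of these data known. Values in every library are given, for each comparison at 3 h and each family, for the top 2 called genes in each direction by size of change, where the batch mean was at least 1, for genes called the same way in all 5 such comparisons, and for the 2 with the largest difference in each comparison of responses. Library values of other genes, such as PSMC4 in batch 1 and PSMD14 in the INTS11 line, were added after their values were seen. Of the UBE2 genes, 1 enters the counts but is not reported by name here.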

Additional observations from a re-analysis of the deposited data

Results flagged for a closer look

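Responses that differed between lines, by limma's interaction term, were marked for UBE2D1, PSMC6 and UBE2Q2. The UBE2D1 response exceeded that of the INTS11 line by 0.96 in the INTS8 line, by 0.86 in the N211del line of batch 1, and by 1.15 at 1 h and 1.32 at 3 h in the N211del line of batch 2, all on the log2 scale. The PSMC6 response was less negative than in the INTS11 line by 0.68 in the INTS8 line, and by 0.64 at 1 h and 0.61 at 3 h in the N211del line of batch 2. The UBE2Q2 response exceeded that of the INTS11 line by 0.68 in the N211del line of batch 1. These 8 differences are described above with their errors, and each was called with all 3 scalings. The values at 1 h and 3 h share the libraries at 0 h.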

How the results depend on the processing

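Of the 24 counts of called genes, none moved by over 1.5 times with either pseudocount or the stricter filter. No change of a gene picked by the rule for library values reversed its sign in the comparison that picked it. PSMD14 at 1 h in the N211del line, outside that rule, lost its higher call and changed sign with centring. In the N211del line of batch 2, centring turned higher calls to lower for UBE2R2 (-0.21), UBE2D2 (-0.18), UBE2K (-0.14), UBE2H (-0.12), PSMD4 (-0.19) and PSME3 (-0.16) at 1 h and UBE2H (-0.09) at 3 h, as did cyclic loess for UBE2R2 (-0.13) and UBE2D2 (-0.07) at 1 h. Centring each library gave 18 proteasome genes called in either direction in the INTS8 line, 18 in the N211del line of batch 1, 20 and 17 in the INTS11 line at 1 h and 3 h, and 22 and 21 in the N211del line at 1 h and 3 h of batch 2. For both families together it gave 0 and 8 between 1 h and 3 h (INTS11, N211del), 14 for INTS8 against INTS11 responses, 2 for N211del against INTS8, 10 for N211del against INTS11 in batch 1, and 12 between the INTS8 and INTS11 lines under vehicle. Cyclic loess gave 13, 14, 14, 17, 20 and 18, then 1, 4, 13, 2, 12 and 9 in the same order. Voom gave 10 (INTS11, 1 h) and 11 (N211del, 3 h, batch 2) proteasome genes, 14 and 20 between the times, and 5 for N211del against INTS8. With pairs within sampling noise averaged, proteasome and UBE2 counts were 5 and 5 (INTS11, batch 1), 1 and 7 (INTS8), 5 and 4 (INTS11, 3 h, batch 2) and 3 and 8 (N211del, 3 h, batch 2); the joint counts were 0 and 6 between the times, 5 for INTS8 against INTS11, 8 and 11 for N211del against INTS11 in batch 1 and at 3 h, and 2 between the lines under vehicle. A fit on the libraries named alone gave 0 between the times (INTS11), 2 for N211del against INTS8 and 8 between the lines under vehicle. The cause of these moves was not tested.

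Leaving out each library in turn, proteasome counts ranged from 9 to 14 (INTS11, batch 1), 2 to 7 (INTS8), 2 to 7 (N211del, batch 1), 6 to 12 (INTS11, 3 h, batch 2), 3 to 5 (N211del, 1 h) and 3 to 5 (N211del, 3 h), and UBE2 counts from 6 to 10 (INTS11, batch 1), 4 to 12 (N211del, batch 1), 6 to 10 (INTS11, 3 h, batch 2) and 5 to 9 (N211del, 3 h). Joint counts ranged from 0 to 6 and 8 to 10 between the times (INTS11, N211del), 0 to 27 for N211del against INTS8, and 1 to 5 between the lines under vehicle. With the replicate number as a block, 3 genes were called between 1 h and 3 h in the INTS11 line, and the other 23 counts stayed within 1.5 times. The deviations of same-numbered libraries correlated at -0.0793 to 0.0244, so the libraries share only a number. The lowest members, at 20 units in a library, limit what can be called for UBE2L6.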

Other observations

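Genes around the 2 families that were not described above also moved. Of the deubiquitinases, USP28 rose in the N211del line in both batches (0.40 and 0.46) and was at 0.27 in the INTS8 line. USP4 fell in the INTS11 line in both batches (-0.42 and -0.30). CUL4B, a cullin scaffold, rose in the INTS8 line (0.45) and the N211del line (0.42 and 0.46), and FBXO5, an inhibitor of the anaphase-promoting complex, rose in the N211del line (0.51 and 0.42). CCNB1, a mitotic cyclin that complex destroys, fell in batch 1 after loss of INTS11 (-0.35) and INTS8 (-0.40). CCNB2, another cyclin of that list, went the other way, at 0.28 and 0.34 in the same comparisons. At 3 h in batch 2 it was called higher in the INTS11 line (0.43) and the N211del line (0.37), where CCNB1 was at -0.14 and -0.12. Of the interferon-stimulated genes, MX1 rose in the INTS11 line (1.51 and 1.41) and IFI6 in the INTS8 line (1.98) and the N211del line (1.83 and 1.51). Neither was particular to those lines. At 3 h MX1 was at 1.17 in the INTS8 line and at 0.81 and 0.725 in the N211del line, and IFI6 was at 0.82 and 0.62 in the INTS11 line. In the INTS8 line TXNRD1 and GCLM, genes of the oxidative stress response, fell by 0.57 and 0.51, and NFE2L2, the factor known for driving them, fell by 0.34. In the N211del line at 3 h TXNRD1 was at -0.30 and -0.35, GCLM at -0.14 and -0.24 and NFE2L2 at -0.09 and -0.27. HMOX1 and SRXN1 of the same list were at -0.11 and -0.16 in the INTS8 line. In the N211del line HMOX1 was at 0.25 and 0.58 and SRXN1 at 0.001 and 0.25. The part of NFE2L2 in these values was not tested. Changes written here as a rise, a fall or a call are limma calls with the deposited values.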
